A study of Homo sapiens with 2 samples.

Results

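Intergenic divergent pairs of transcription starts, an arrangement found at active enhancers, were examined in wild-type HUDEP-2 cells, an immortalised human erythroid progenitor line. Starts were mapped by PRO-cap, which captures nascent RNA from its 5' end after a nuclear run-on, in 2 biological replicates of this 1 group. No treatment and no other cell type entered the comparisons. The lists used here gave 26395 called positions with no read count and no value per replicate, so that depth and replicate spread are unknown. A pair was a reverse call with the nearest forward call 0 to 300 bp above it, so that the calls point away from each other. Pairs were kept where both calls lay outside every annotated gene and more than 1000 bp from every gene end. This left 214 of 5798 divergent pairs on chromosomes 1 to 22 and X (3.69%, 95% Wilson interval 3.24 to 4.21). They were 23.2% (20.6 to 26.0) of the 922 distal pairs, and the other 708 distal pairs lay inside genes. The pairs held 427 of the 1583 intergenic calls. All intervals cover counting error only.

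Enhancers are stretches of DNA that raise transcription of a gene from a distance. Active ones are bound by transcription factors and recruit RNA polymerase II, which starts in both directions from the edges of an open region and makes short, unstable enhancer RNAs. Because these RNAs are soon degraded, run-on methods detect them better than sequencing of steady-state RNA. In red cell precursors the best known example is the locus control region of the beta-globin genes, and the factors GATA1, TAL1 and KLF1 bind at many others. The same divergent arrangement is also found at unannotated promoters, and the calls alone do not tell these apart.

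The bases between the calls of intergenic pairs were not used here, since no genome sequence was at hand. RefSeq promoter windows of the build GRCh38.p14, each 250 bases before to 50 after an annotated start, were used instead to show what a called base looks like. Shown 5' to 3' are the called starts of 4 genes of the erythroid lists used below, each with an intergenic pair about 10 kb away. The sequences hold 60 bases before and 20 after the call, with the called base in capitals.

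RHAG, chr6:49636820-49636900, reverse strand: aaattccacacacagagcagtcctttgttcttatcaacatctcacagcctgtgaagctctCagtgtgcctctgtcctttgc

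ID1, chr20:31605228-31605308, forward strand: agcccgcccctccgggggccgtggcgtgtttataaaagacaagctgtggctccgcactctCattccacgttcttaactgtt

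PIEZO1, chr16:88785201-88785281, reverse strand: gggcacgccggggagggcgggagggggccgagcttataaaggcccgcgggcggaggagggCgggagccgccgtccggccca

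GYPC, chr2:126656086-126656166, forward strand: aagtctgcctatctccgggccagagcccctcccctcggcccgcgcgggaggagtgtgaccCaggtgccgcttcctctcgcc

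In all 4 sequences the called base is a C followed by a purine. Transcription by RNA polymerase II most often begins at a purine that follows a pyrimidine. Of 7719 calls inside RefSeq promoter windows on the strand of the gene, 51.6% lay on a C. A C at the call with an A after it was seen in 37.3%, and an A at the call with a C before it in 1.36%. Among the 4295 calls within 10 bp of an annotated start, 1538 (35.8%) lay 1 base before it and 888 (20.7%) on it. Both strands showed this, with 746 forward and 792 reverse calls 1 base before. Positions are printed as deposited, and moving every call 1 base in its direction left 211 intergenic pairs. The window of RHAG, the glycoprotein partner of the Rh antigens, held a GATA motif, searched as AGATAA and TGATAA on both strands and present in 16.3% of 34961 windows. Those of ID1 and PIEZO1 held TATAAA, present in 11.5%. A KLF motif, searched as CACACCC and CCCACCC, was present in 25.2% of windows and in those of RHAG, ID1 and GYPC. A match is a description of the letters only.

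Divergent order far exceeded convergent order among intergenic calls. Of 809 intergenic forward calls, 213 (26.3%, 23.4 to 29.5) had a reverse call up to 300 bp below, and 54 (6.67%, 5.15 to 8.61) had one 1 to 300 bp above. The order is part of the rule, so that no test was made. Divergent neighbours numbered 55 at 0 to 100 bp, 113 at 101 to 200 bp and 46 at 201 to 300 bp, and beyond the limit 22 at 301 to 400 bp and 12 at 401 to 500 bp. Convergent neighbours numbered 10, 16, 28, 15 and 21 in the same ranges. Divergent neighbours were the more numerous at up to 400 bp and convergent ones beyond that. Just inside the spacing limit lay the pairs chr6:98014632-98014932, near MIR2113, and chr8:90197449-90197749, near LINC00534, both at 300 bp. Just outside lay chr12:6891028-6891330 at 302 bp and chr16:88992379-88992687 at 308 bp. At the limit to gene ends, the nearest members lay 1019 bp from LOC107984564 (chr13:77329217-77329323) and 1072 bp from RABGGTB (chr1:75785058-75785122). The nearest pairs left out lay 984 bp from LGALS7 and 996 bp from LOC100133284.

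**Figure D1:**
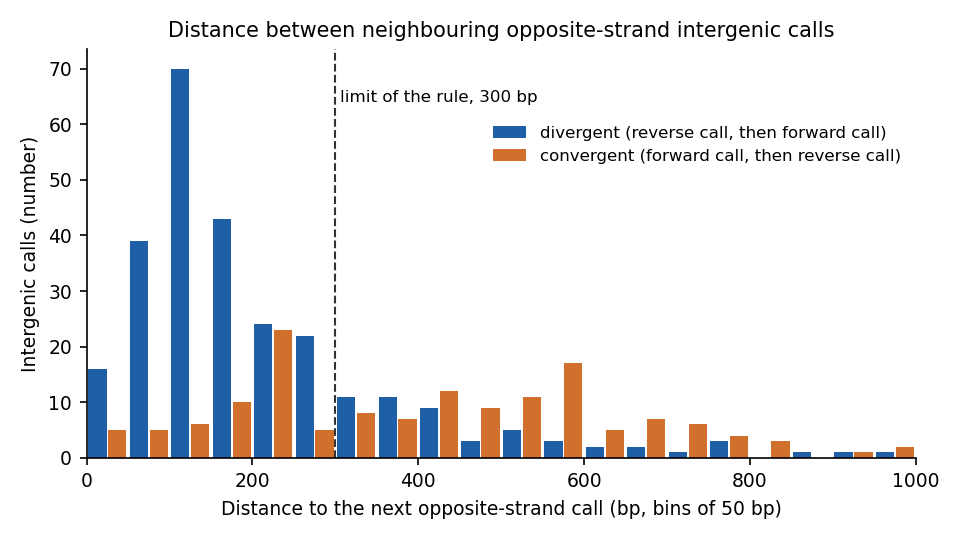
Number of intergenic calls (vertical axis) by distance in bp to the next intergenic call of the opposite strand (horizontal axis, bins of 50 bp), for divergent (blue) and convergent (orange) order. Divergent neighbours peak at 70 between 100 and 150 bp and fall to 11 just past the limit of 300 bp, while convergent ones stay at or below 23 in every bin.

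The calls of a pair were a median of 132 bp apart (quartiles 100 and 194, range 4 to 300). Of the 214 pairs, 53 were under 100 bp, 71 at 100 to 149 bp and 22 at 250 to 300 bp. The most filled 25 bp range was 100 to 124 bp, with 43 pairs (20.1%). In-gene distal pairs had 12.7% in that range and pairs at gene ends 13.7%, a range picked after the values were seen and not tested. The narrowest pairs were chr13:105140258-105140262 and chr14:76956786-76956790, each 4 bp wide, and at 8 bp chr17:79813666-79813674, in the intergenic stretch beyond CBX8, and chr14:77642269-77642277, 25.6 kb from SPTLC2, which encodes a subunit of serine palmitoyltransferase. Besides both pairs at 300 bp, the widest was chrX:129957213-129957512 at 299 bp, 22.8 kb from the corepressor gene BCORL1. Spacing of up to 150 bp was found in 125 intergenic pairs (58.4%, 51.7 to 64.8), in 361 of 708 in-gene distal pairs (51.0%, 47.3 to 54.7) and in 2517 of 4876 pairs at gene ends (51.6%, 50.2 to 53.0). Neither difference passed Fisher's exact test in a two-sided form (p = 0.0609 and 0.0589, and 0.102 for both after Benjamini-Hochberg adjustment across all 5 comparisons made). With pairs of up to 500 bp admitted, the difference from gene ends passed (50.4% against 41.9%, exact test, adjusted p = 0.0217). The counts up to 150 bp stayed at 125 and 2517, and only the totals grew, to 248 and 6001. The added pairs lie outside the rule, so that this pass says nothing about the 214 pairs. Median spacing was 148 bp in both other classes.

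**Figure D2:**
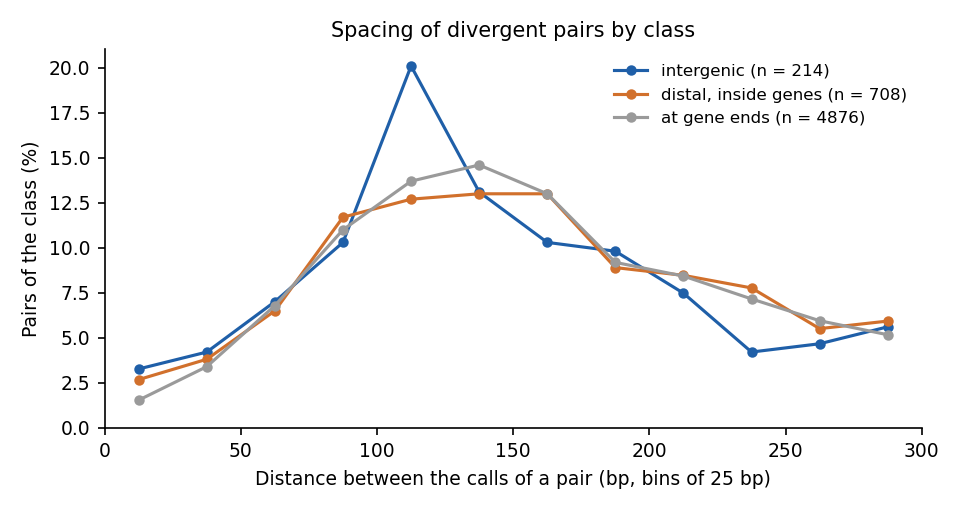
Share of pairs in each class (vertical axis, %) by distance between the calls of a pair (horizontal axis, bp, bins of 25 bp) for 214 intergenic, 708 in-gene distal and 4876 gene-end pairs. The intergenic pairs reach 20.1% at 100 to 124 bp, where the other classes have 12.7% and 13.7%, and the 3 lines lie close together elsewhere.

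Intergenic pairs mostly lay a few kb from a gene. The nearest gene of any kind was a median of 6.05 kb away (quartiles 2.79 and 13.3 kb), and 145 of 214 pairs lay within 10 kb of one. That gene was protein-coding for 104 pairs (48.6%, 42.0 to 55.3), a long noncoding RNA gene for 63 (29.4%), a pseudogene for 37, a transcribed pseudogene for 2, a tRNA gene for 5, an snRNA gene for 2 and a miRNA gene for 1. Unpaired intergenic calls, 1146 in all, had a coding gene nearest in 52.4% (49.5 to 55.2) and a long noncoding one in 28.6%, and the intervals of both groups overlap. The nearest coding gene was a median of 10.6 kb away, against 12.1 kb for unpaired calls, and the nearest called start of a coding gene 27.8 kb against 38.3 kb. A start was called for a gene when a call within 500 bp of either outer end pointed into it. This held for 41.4% of all 19821 coding genes. The strand of the gene was not used, so that a call at its downstream end pointing back into it also counted. Calls at annotated starts farther inside a gene did not count.

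The nearest coding gene had a called start for 138 of the 214 pairs (64.5%, 57.9 to 70.6) and for 668 of 1146 unpaired calls (58.3%, 55.4 to 61.1). This difference did not pass Fisher's exact test (two-sided, odds ratio 1.30, p = 0.0957, adjusted p = 0.120). It passed when only 1 pair or call was counted per chain of intergenic calls up to 10 kb apart. This alternative, chosen after seeing the data, gave 65.1% of 192 pairs and 55.4% of 766 unpaired calls (exact test, adjusted p = 0.0364). In chains with a pair it kept 1 pair and dropped all unpaired calls, so that nothing is read from it. Where the promoter table gave the strand of the nearest coding gene, 99 of 165 pairs lay upstream of it (60%, 52.4 to 67.2) and 66 downstream, and 57.2% (53.9 to 60.4) of 892 unpaired calls lay upstream. Neighbouring sites share genes and are not independent.

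**Figure D3:**
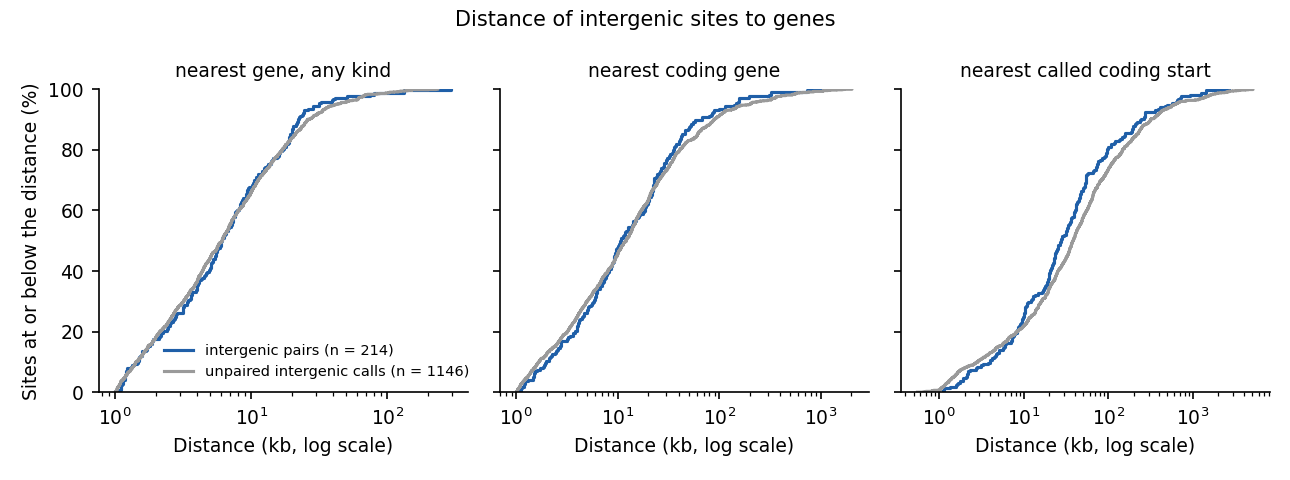
Cumulative share of sites (vertical axis, %) by distance in kb (horizontal axis, log scale) to the nearest gene of any kind, the nearest coding gene and the nearest called start of a coding gene, for 214 intergenic pairs (blue) and 1146 unpaired intergenic calls (grey). The curves nearly coincide for genes of any kind, and in the right panel the pairs reach their median at 27.8 kb and the unpaired calls at 38.3 kb.

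The pairs closest to a called coding start sat just past the limit of the rule. The pair chr11:118792848-118793068 lay 1103 bp from the start of DDX6, an RNA helicase of mRNA storage and decay. The pair chr12:751197-751461 lay 1133 bp from that of WNK1, a kinase that regulates ion transport. RABGGTB, a subunit of the enzyme that attaches lipid anchors to Rab proteins, followed at 1134 bp, and KIF11, a mitotic kinesin, at 1337 bp. TMEM14C, an inner mitochondrial membrane protein needed for haem synthesis, had the pair chr6:10721417-10721575 at 1592 bp. CBFA2T3, a corepressor that works with the TAL1 complex, had chr16:88979158-88979259 at 1625 bp. MTO1, which modifies mitochondrial tRNA, RNPEPL1, RCSD1 and the retinoid X receptor gene RXRA completed the nearest 10, at 1692, 1766, 1904 and 1905 bp. In all, 28 pairs lay within 5 kb of such a start and 143 within 50 kb.

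At the other end, 6 pairs lay more than 50 kb from any gene and 15 more than 100 kb from any coding gene. The most remote was chr18:30679677-30679785, 108 bp wide, 293 kb from the nearest gene, a long noncoding one, and 310 kb from DSC3, a desmosomal cadherin gene. On chromosome 13 the reverse calls at 105140000 and 105140258 both took the forward call at 105140262 as partner, the only forward call shared by 2 pairs, 133 kb from any gene. The pair chr18:8912594-8912675 lay 79.8 kb from MTCL1, a microtubule regulator, and chr13:88704639-88704838 lay 74.2 kb from LINC00560 and 1025 kb from the coding gene SLITRK5.

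Another intergenic call lay within 10 kb of 119 of 214 pairs (55.6%, 48.9 to 62.1) and of 528 of 1146 unpaired calls (46.1%, 43.2 to 49.0). At 5 kb the shares were 53.3% and 41.4%, and at 50 kb 61.7% and 55.4%. Unpaired calls are by the rule those left without a divergent call up to 300 bp away, so that these shares are a description and no test is given. The other 95 pairs had no intergenic call within 10 kb. Another pair lay within 1000 bp of 27 pairs and within 10 kb of 39. Over all pairs the median distance to the next pair was 1691 kb.

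These 27 pairs formed 13 sites of neighbouring pairs. At 12 of the sites no call was shared. The rule itself then sets the order of the paired calls as reverse, forward, reverse, forward, so that this order is not a result. The facing calls between neighbouring pairs that shared no call were 132 to 588 bp apart, and their reverse calls a median of 392 bp apart. The deposited lists held no calls on the same strand less than 251 bp apart, which bounds how tight such rows can be. The tightest neighbours sharing no call were at chr1:26621246-26621627, 46.2 kb from the kinase gene RPS6KA1, with reverse calls 264 bp apart. Next came chr2:231666174-231666654, near PTMA, which encodes prothymosin alpha, at 280 bp, and chr10:32980647-32980971, beyond ITGB1-DT and 22.4 kb from the integrin gene ITGB1, at 289 bp. RRM2, the small subunit of ribonucleotide reductase that supplies DNA precursors, had a pair of 147 bp and one of 36 bp at chr2:10120287-10120685, 1.88 kb upstream of the gene. On chromosome 9, 3 pairs of 170, 178 and 115 bp lay within 897 bp (chr9:6680848-6681745), between GLDC and KDM4C, neither of which had a called start.

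**Figure D4:**
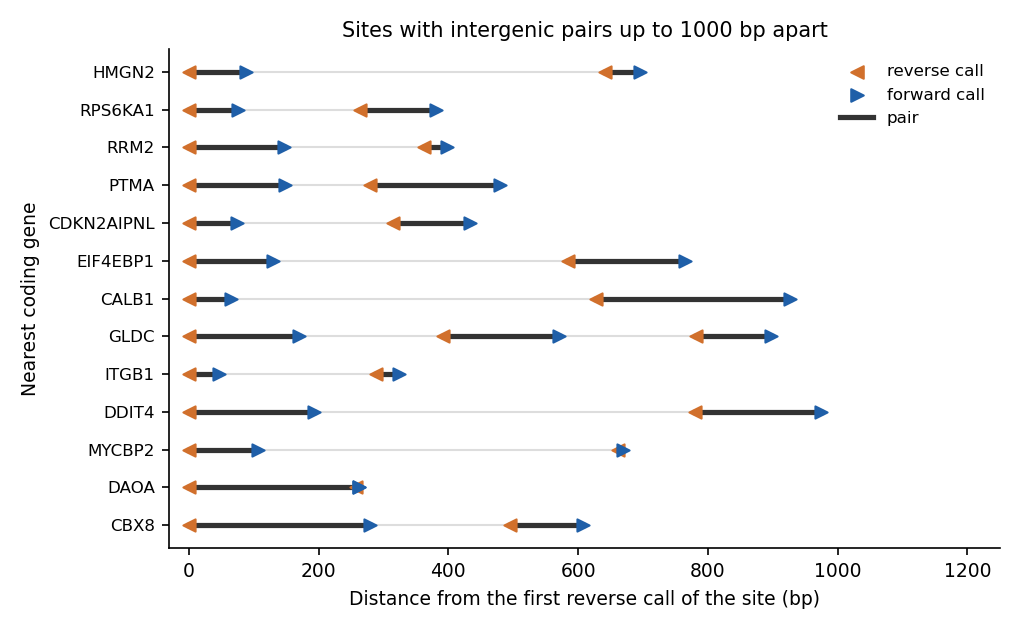
Calls at the 13 sites where intergenic pairs lie up to 1000 bp apart, by distance in bp from the first reverse call (horizontal axis), each row named by the nearest coding gene; left and right triangles are reverse and forward calls and black bars join the calls of a pair. The site near GLDC has 3 pairs, the site near DAOA has 2 reverse calls with 1 forward call, and the others have 2 pairs.

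Chains of intergenic calls up to 10 kb apart held 1 pair in 172 cases, 2 in 18 and 3 in 2. The largest, at chr17:79798981-79815180, had 14 calls over 16.2 kb, 8 of them outside pairs, and its nearest pair lay 5636 bp from the Polycomb gene CBX8. Its pairs were 280, 113 and 8 bp wide. Neither CBX8 nor its neighbour CBX2 had a called start. The site near GLDC, with 6 calls all in pairs, also held 3 pairs. The chain at chr2:8526239-8543918, 138 kb upstream of ID2, an inhibitor of basic helix-loop-helix factors, had 10 calls and 2 pairs. Chains of 7 calls and 2 pairs lay at chr1:26620185-26621627 and at chr10:72317077-72326785, the latter 11.9 kb from the co-chaperone gene DNAJB12.

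Few coding genes had several pairs nearby. Of 19821 coding genes, 635 had 1 intergenic pair within 100 kb, 69 had 2, 14 had 3 and 5 had 4. Those with 4 included, on chromosome 10, DDIT4, a stress-induced inhibitor of mTOR signalling, DNAJB12 and the anaphase-promoting complex gene ANAPC16, each with a called start. Their pairs lay between DDIT4 and DNAJB12, at 72297288, 72298069, 72317077 and 72320818 (reverse calls), the nearest 21.3 kb from DDIT4. RPS6KA1 on chromosome 1, a kinase of growth factor signalling, had 2 pairs on each side, the nearest 28737 bp away, and a called start. Among genes with 3 were ASCC1, CBX2, CBX8 and ENPP7, none with a called start.

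The 5 erythroid lists together held 154 coding genes, of which 26 had such a pair (16.9%, 11.8 to 23.6). Among all coding genes the share was 3.65%, among the 8207 with a called start 5.25% and among the others 2.51%. Listed genes with a called start had 20 of 108 (18.5%, 12.3 to 26.9). Median distance to the nearest pair was 2.75 Mb for the listed genes and 4.02 Mb for all coding genes. Without the globin genes, which share their pairs, 21 of 144 remained (14.6%, 9.74 to 21.3). The lists were chosen with earlier results known, and the counts describe these genes without a test.

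Among erythroid transcription factors and their partners, 5 of 31 genes had a pair within 100 kb. CBFA2T3 had one 1.95 kb from its end, on the upstream side, and another within 100 kb. RUNX1, a regulator of blood cell formation, had the pair chr21:35051396-35051519, 123 bp wide, 2.09 kb upstream of the gene. NFIA and NFIX, members of the nuclear factor I family, had pairs 26.1 kb (chr1:61051072-61051128) and 29.9 kb (chr19:12965472-12965541) upstream. KLF1, the activator of adult beta globin, lay 78.3 kb from the same pair as NFIX. NFIA had no called start at its outer ends, and the other 4 had one, as did 21 of the 31 listed. NFIA did have a call on its strand at 61082560, in the promoter window of an annotated start inside the gene.

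Of 30 genes of haem synthesis and iron handling, 5 had a pair within 100 kb. All 5 had a called start, as did 27 of the 30. TMEM14C had its pair 1495 bp upstream. SLC25A37, mitoferrin, which brings iron into mitochondria, lay 19.9 kb from chr8:23508871-23509056. SLC40A1, the iron exporter ferroportin, had chr2:189613250-189613321 at 32.5 kb on its upstream side. The ferritin heavy chain gene FTH1 lay 58.0 kb from chr11:62025663-62025779, and the transferrin receptor gene TFR2 lay 86.9 kb from chr7:100533474-100533520. The haem list as a whole had a median distance of 5.02 Mb, above the 4.02 Mb of all coding genes, so that only a few of its members were near a pair.

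Of 38 red cell membrane and blood group genes counted as coding in the table, 6 had a pair within 100 kb. PIEZO1, a mechanosensitive channel that sets red cell volume, had chr16:88793723-88793865 at 8.50 kb upstream. RHAG had chr6:49646354-49646575 at 9.52 kb upstream, and GYPC, which encodes glycophorin C, had chr2:126645334-126645619 at 10.5 kb upstream. ICAM4, the Landsteiner-Wiener blood group gene, lay 11042 bp from chr19:10299562-10299740 on its downstream side. DMTN, dematin of the membrane skeleton, and EPB42, protein 4.2, lay 38.6 and 73.9 kb from a pair and had no called start at their outer ends. EPB42 did have a call on its strand at 43221047, in the promoter window of an annotated start inside the gene.

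Other erythroid genes had 5 of 46 near a pair. All 5 had a called start, as did 33 of the 46. XPO7, a nuclear export receptor, lay 3.66 kb from chr8:22010245-22010352, the same pair as DMTN. PIM1, a survival kinase induced by cytokine signalling, had chr6:37183229-37183504 at 7.80 kb downstream. ID1 had chr20:31596230-31596336 at 8.95 kb upstream, and BCL2L1, the survival gene of erythroblasts, lay 68.1 kb from the same pair. BLVRB, which reduces biliverdin, had chr19:40433926-40434127 at 13.6 kb downstream.

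The 5 globin genes with a pair within 100 kb were the beta cluster, HBE1, HBG2, HBG1, HBD and HBB, whose distances from the pair chr11:5275950-5276048 were 6005 bp, 21.2, 26.1, 41.5 and 48.9 kb. Of these, HBD and HBB had a called start and the fetal and embryonic genes had none. This pair was 98 bp wide and the other, chr11:5288254-5288334, 80 bp, both narrower than the median of all intergenic pairs. They lie on the locus control region side of HBE1, the embryonic gene, and count for all 5 genes. Of the alpha cluster no gene had an intergenic pair within 200 kb.

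**Figure D5:**
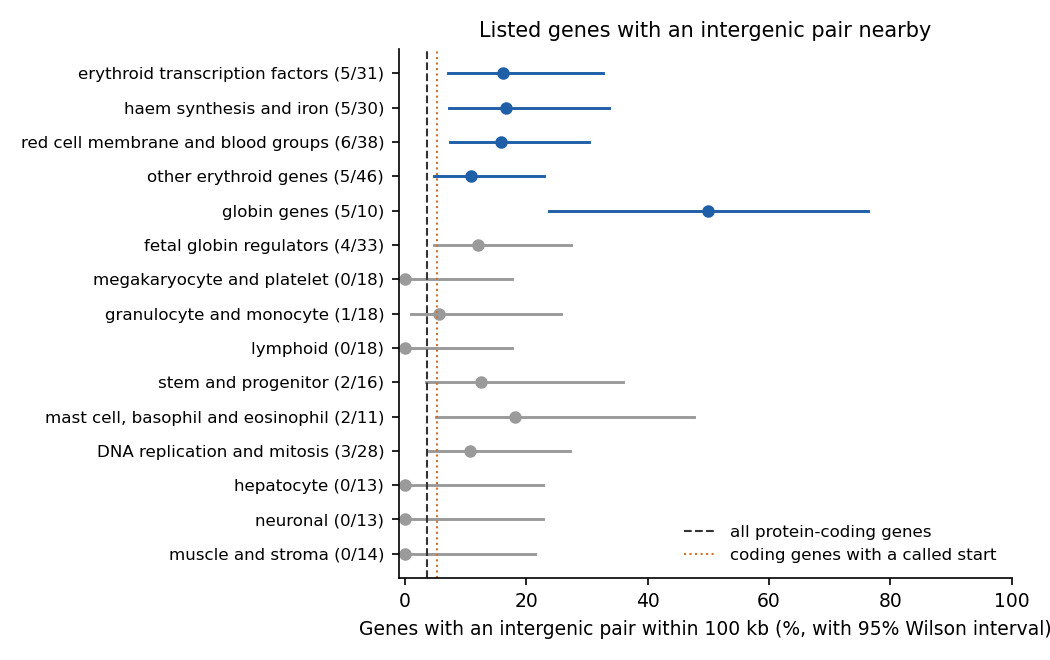
Share of listed genes with an intergenic pair within 100 kb (horizontal axis, %), with 95% Wilson intervals, for 5 erythroid lists (blue) and 10 other lists (grey); counts stand beside each name, and vertical lines mark all coding genes (3.65%) and those with a called start (5.25%). Shares of the erythroid lists run from 10.9% to 16.7%, with the globin genes at 50%, and those of the other lists from 0 to 18.2%. The wide intervals of the other lists all overlap those of the erythroid lists other than globin, and some also reach that of globin (23.7 to 76.3).

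The 10 other lists, joined and less genes of the erythroid lists, had 9 of 173 genes with a pair within 100 kb (5.20%, 2.76 to 9.59), beside 3.65% of all coding genes and 5.25% of those with a called start. Among megakaryocyte and platelet genes 0 of 18 had one within 100 kb (Wilson upper bound 17.6%), and likewise 0 of 18 lymphoid, 0 of 13 hepatocyte, 0 of 13 neuronal and 0 of 14 muscle and stromal genes. Few genes of these lists had a called start (2, 1, 1, 1 and 0 in this order), unlike the erythroid lists with 108 of 154. Of all coding genes without a called start 2.51% had a pair within 100 kb, so that 0 says little in lists of this size. Of granulocyte and monocyte genes 1 of 18 had one, the transcription factor CEBPA at 45.3 kb. Stem and progenitor genes had 2 of 16, the surface marker CD34, without a called start, at 12515 bp (chr1:207868297-207868457) and the transcription factor HLF at 19.3 kb. The mast cell list had 2 of 11 (18.2%, 5.14 to 47.7), a share above those of 4 erythroid lists at this small number, namely TPSAB1 and TPSB2, tryptase genes without a called start, at 2.42 and 14.8 kb from chr16:1244970-1245149. Regulators of fetal globin had 4 of 33, namely NFIA, NFIX and KLF1 again and the stress factor ATF4 at 66.0 kb. DNA replication and mitosis had 3 of 28, KIF11 at 1.31 kb, RRM2 at 1.88 kb and CDT1, a replication licensing factor, at 9.92 kb.

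Pairs and unpaired intergenic calls were also set side by side for nearness to genes of the erythroid lists. Of the 214 pairs, 21 (9.81%, 6.51 to 14.5) lay within 100 kb of a listed erythroid gene, and of the 1146 unpaired calls 95 (8.29%, 6.83 to 10). No difference was shown by Fisher's exact test (two-sided, odds ratio 1.20, p = 0.504, adjusted p = 0.504). The test counts neighbouring sites as independent, though they share genes. With 1 pair or call per chain the shares were 10.4% and 6.79% (exact test, odds ratio 1.60, adjusted p = 0.141). That setting drops all unpaired calls from chains with a pair, so that nothing is read from it.

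Pairs were found on all 23 chromosomes examined. Chromosome 19 had the most, 19 pairs, or 13.5 for 1000 coding genes, followed by chromosome 11 with 18, and chromosomes 1 and 6 with 17 each. Relative to its genes, chromosome 13 had the most, 8 pairs for 336 coding genes, 23.8 for 1000, and chromosome 15 had 2 for 602, or 3.32 for 1000. The 8 pairs are not all separate sites. Those with reverse calls at 105140000 and 105140258 share a forward call, and those at 77329217 and 77329878 lie 555 bp apart. This ranking was not tested. The share of intergenic reverse calls in a pair was 27.6% (24.6 to 30.9) over the genome, and ran from 13.3% on chromosome 15 (3.74 to 37.9) to 42.9% on chromosome 21 (15.8 to 75), with overlapping intervals at these numbers.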

How the data were processed

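PRO-cap libraries of nuclear RNA came from 2 biological replicates of wild-type HUDEP-2 cells, per the labels. Build hg38 and the tools BWA 0.7.16a, SAMtools 1.17, deepTools 3.5.4 and Picard are listed, with no roles, in the submitters' processing notes. How calls were thresholded, by which version, and whether replicates were pooled is not given in the sources used here. Every call carries a score of 0 as deposited by the authors. The other deposited columns used are the coordinates of 1-base calls, read here as 1-based positions.

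Of 26395 calls, 63 on other sequences were left out. Gene ends came from a RefSeq table of GRCh38.p14 with 58419 genes on these chromosomes (679 entries of other scaffolds removed), and strand and promoter sequences from a RefSeq promoter table, which holds 15812 of the 19821 coding genes. Pairs, distances and counts were computed with numpy 2.4.6 and pandas 2.3.3, and Wilson intervals and Fisher's exact tests with scipy 1.17.1, adjusted over 5 comparisons at a threshold of 0.05. The comparison of further calls nearby stayed among the 5 for the adjustment but is given without its p-value, since the rule defines unpaired calls by near calls. The steps were tested on simulated data. Genes were named by fixed rules: erythroid list genes with a pair within 100 kb, the 10 genes with most pairs, the 10 pairs nearest to a called coding start, extremes of distance and spacing, and the largest chains. Some genes that meet these rules are not reported here. Of 328 listed symbols in 15 lists, 327 are coding in the table. The members and lists were chosen with earlier results of these data known. The planned motif search at pairs was not run, since no genome was used here.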

Additional observations from a re-analysis of the deposited data

How the results depend on the processing

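Of 34 values under other settings, 27 kept their direction and side of the threshold or stayed within 1.5 times, and none reversed. The number of intergenic pairs was 125 with calls up to 150 bp apart, 128 at more than 5 kb from gene ends and 512 with only coding genes setting ends and interiors. The ratio of divergent to convergent pairs was 3.96, and 7.81 up to 150 bp apart. An odds ratio of 1.41 for spacing against gene ends passed the exact test, where it had not, with pairs of up to 500 bp. For called nearest genes an odds ratio of 1.5 passed with 1 site per chain. The former setting adds pairs outside the rule, and the latter drops unpaired calls from chains with a pair. Nothing is read from either pass. For further calls within 5 kb the odds ratio was 1.62, and 1.30 within 50 kb, from groups that the rule itself sets apart by near calls, so that nothing is read from a test of it. The settings with 1 site per chain or calls moved 1 base were chosen after seeing the data. Planned motif shares at pairs were not run without a genome. No replicate could be left out and no paired analysis was possible because the lists give no value per replicate. A site below the unknown calling threshold appears as none.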

Other observations

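Outside the genes named by rule, and picked after their values were seen, 4 olfactory receptor genes on chromosome 11, OR10G4, OR10G7, OR10G8 and OR10G9, each had 3 intergenic pairs within 100 kb and no called start. Olfactory receptors detect odorants in the nose. A chain of 7 intergenic calls with 2 pairs, chr11:124075911-124080463, lay between OR10G7 and VWA5A, which had a called start. Its nearest pair was 34586 bp from OR10G7. The pair nearest to VWA5A, chr11:124096481-124096599, was not in this chain and lay 18851 bp from that gene. A chain of 6 calls with 2 pairs lay at chr6:15081779-15090413, 155780 bp from JARID2, which encodes a partner of Polycomb complexes.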
